A study of Homo sapiens with 12 samples.

Results

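The CCAAT/enhancer binding proteins (C/EBPs) were followed through 12 RNA-seq libraries of HEK293 cells, a human embryonic kidney line. The genes CEBPA, CEBPB, CEBPD, CEBPE and CEBPG were taken by symbol, and all 5 were found among the 26058 genes listed with RPKM values (reads divided by exon length and library size). CEBPE was selected on its loss in the knockout line, so its difference between the lines is given as a description with no test. The other 4 members were selected as its relatives. All 5 passed the filter for testing, a mean of at least 0.5 RPKM over the libraries. CEBPE passed it through the WT libraries alone.

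Wild-type HEK293 cells (WT) were compared with a derivative in which both catalytic AMPKα subunits had been knocked out with CRISPR-Cas9 (AMPK KO). AMPK is a kinase that senses cellular energy. Whether the knockout line was grown from a single clone was not given in the sources used here, and each genotype was represented by a single line, so effects of the knockout and other differences between the lines cannot be told apart. Cells of every group were serum starved for 24 h. Those named DMSO then received 0.025% DMSO, the solvent, without growth factor, for 50 min by the sample labels. Those named DMSO+EGF received DMSO for 50 min, the last 30 min of it with epidermal growth factor (EGF) added. The cordycepin+EGF groups received 25 µM cordycepin, an adenosine analogue that lacks the 3′ hydroxyl group, in place of DMSO alone, with the same times. EGF was labelled at a concentration of 15, in µM in the sample labels and in nM in the design text. Each of the 6 groups had 2 libraries, numbered replicates 2 and 3, since the authors discarded replicate 1 as an outlier. The authors called the replicates biological. The labels did not say how separate the replicate cultures were, so p-values measure only the spread between these samples.

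C/EBP proteins are transcription factors of the basic leucine zipper (bZIP) class. They bind DNA as dimers with each other or with other bZIP proteins. C/EBPα and C/EBPβ are known for their roles in fat, liver and myeloid cells, and C/EBPδ for acute phase and inflammatory responses. C/EBPε is known as a myeloid factor that is needed for the late maturation of neutrophils and eosinophils. C/EBPγ lacks a typical activation domain and is widely expressed, acting as a dimer partner that includes ATF4 among its partners.

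Reads recovered from the RPKM values summed to 3806335 on listed genes in WT DMSO replicate 3 and to 25104904 in WT cordycepin+EGF replicate 2, and every other library lay between these with at least 12016743. WT DMSO was therefore the least precise group. PRKAA1 and PRKAA2, which encode the deleted subunits, were still transcribed in AMPK KO cells. PRKAA1 was at 11.2 to 21.9 RPKM in WT and 7.03 to 8.51 RPKM in AMPK KO libraries, and PRKAA2 at 6.78 to 12.1 and 5.39 to 7.43 RPKM. PRKAA1 was lower in AMPK KO cells by limma in DMSO (-1.26 on the log2 scale, adjusted p = 0.0228) and DMSO+EGF (-1.12, adjusted p = 0.0236), whereas the difference in cordycepin+EGF (-0.49, adjusted p = 0.28) and those of PRKAA2 (-0.73 to -0.12) did not pass. The calls of PRKAA1 were lost with a replicate block within each line (0.0654 and 0.0543), the one in DMSO without either AMPK KO library (0.128 and 0.213) and the one in DMSO+EGF without any of its 4 libraries (0.152 to 0.248). The DMSO call was also lost when only the groups compared were fitted (0.416) and with array weights (0.0805). Of 7 markers chosen for HEK293 cells, KRT8, KRT18, VIM, NEFL and LIN28B were detected, whereas NEFM and PAX2 stayed under 1 RPKM in every library. Among 6 blood cell markers, PTPRC, which marks all leukocytes, reached 0.0610 RPKM at most and the myeloid integrin ITGAM 0.134 RPKM, whereas CD14 reached 2.84 and CSF1R 1.84 RPKM. SPI1 and CD3E were not listed. The summed level of the blood markers was 1.22 to 3.26 RPKM in WT and 2.36 to 3.63 RPKM in AMPK KO libraries. No fibroblast or endothelial marker was listed.

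CEBPE lies on the minus strand of chromosome 14 (GRCh38, positions 23117036 to 23120256, ENSG00000092067). The start of its protein-coding transcript is at 23119255, and the annotation extends the gene further upstream with noncoding transcripts. CIROP, which encodes a leishmanolysin-like peptidase, is the next listed gene downstream on the same strand, and it also turned out to be lost in AMPK KO cells. The 250 bases before the start of each gene are shown because both genes were silent or nearly so in the same libraries. They were taken from RefSeq on GRCh38.p14, minus strand, at chr14:23119256-23119505 and chr14:23104990-23105239, and capitals mark TGAGTCA, the consensus of AP-1 (FOS and JUN dimers).
CEBPE: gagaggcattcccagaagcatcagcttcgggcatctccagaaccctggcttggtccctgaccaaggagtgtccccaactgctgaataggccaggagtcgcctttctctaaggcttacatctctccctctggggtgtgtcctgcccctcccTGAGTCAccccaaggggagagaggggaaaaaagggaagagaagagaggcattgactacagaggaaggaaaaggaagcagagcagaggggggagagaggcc
CIROP: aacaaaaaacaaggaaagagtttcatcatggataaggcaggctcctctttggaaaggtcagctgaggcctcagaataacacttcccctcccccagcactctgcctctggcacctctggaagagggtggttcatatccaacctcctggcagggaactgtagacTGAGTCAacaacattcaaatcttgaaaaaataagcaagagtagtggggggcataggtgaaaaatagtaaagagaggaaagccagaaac

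The AP-1 letters began 100 bases before the start of CEBPE and 88 bases before that of CIROP. Searched as TGAGTCA or TGACTCA, they were present in 4.22% of the 34943 RefSeq windows of that length. The GC content was 57.2% for CEBPE and 46.4% for CIROP, against a median of 58.0% over all windows. Neither window held the cyclic AMP response element (TGACGTCA, 1.63% of windows), the C/EBP palindrome (TTGCGCAA, 0.13%), the CCAAT box (CCAAT or ATTGG, 32.04%), TATAAA or TTTATA (10.75%) or the EGR site (GCGTGGGCG or CGCCCACGC, 0.72%). Among the other members, TATAAA letters began 30 bases before CEBPA and 29 bases before CEBPB. CCAAT letters began 245 bases before CEBPB, and 85 and 24 bases before CEBPG. The C/EBP palindrome was absent from the windows of all members. The motifs were chosen after the sequences had been seen, and a match is a description of letters only.

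In WT cells CEBPE was an abundant mRNA, and in AMPK KO cells it was all but absent. Its level was 84.8 and 91.8 RPKM in WT DMSO, 113.6 and 110.0 RPKM in WT DMSO+EGF, and 85.0 and 76.2 RPKM in WT cordycepin+EGF. The mean over WT libraries lay at the 98.8th percentile of listed genes. In AMPK KO cells it was listed at 0 in 5 of 6 libraries and at 0.0387 RPKM in cordycepin+EGF replicate 2. These values stood for 17954 reads over the WT libraries, from 652 to 5080 each, and for 1 read over the AMPK KO libraries. The groups of the lines were far apart, and no WT library came near an AMPK KO library. A count of 0 allows up to 3 reads in a library, which corresponds to 0.0898 to 0.123 RPKM in the AMPK KO libraries. Set against that floor per library, CEBPE was at least 826-fold lower in AMPK KO cells in DMSO and at least 908-fold lower in DMSO+EGF. In cordycepin+EGF, where 6483 WT reads stood against 1, the ratio was 4851 (95% interval 870 to 191600). Intervals and floors cover counting error only, since reads without molecular identifiers are not independent molecules.

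**Figure D1:**
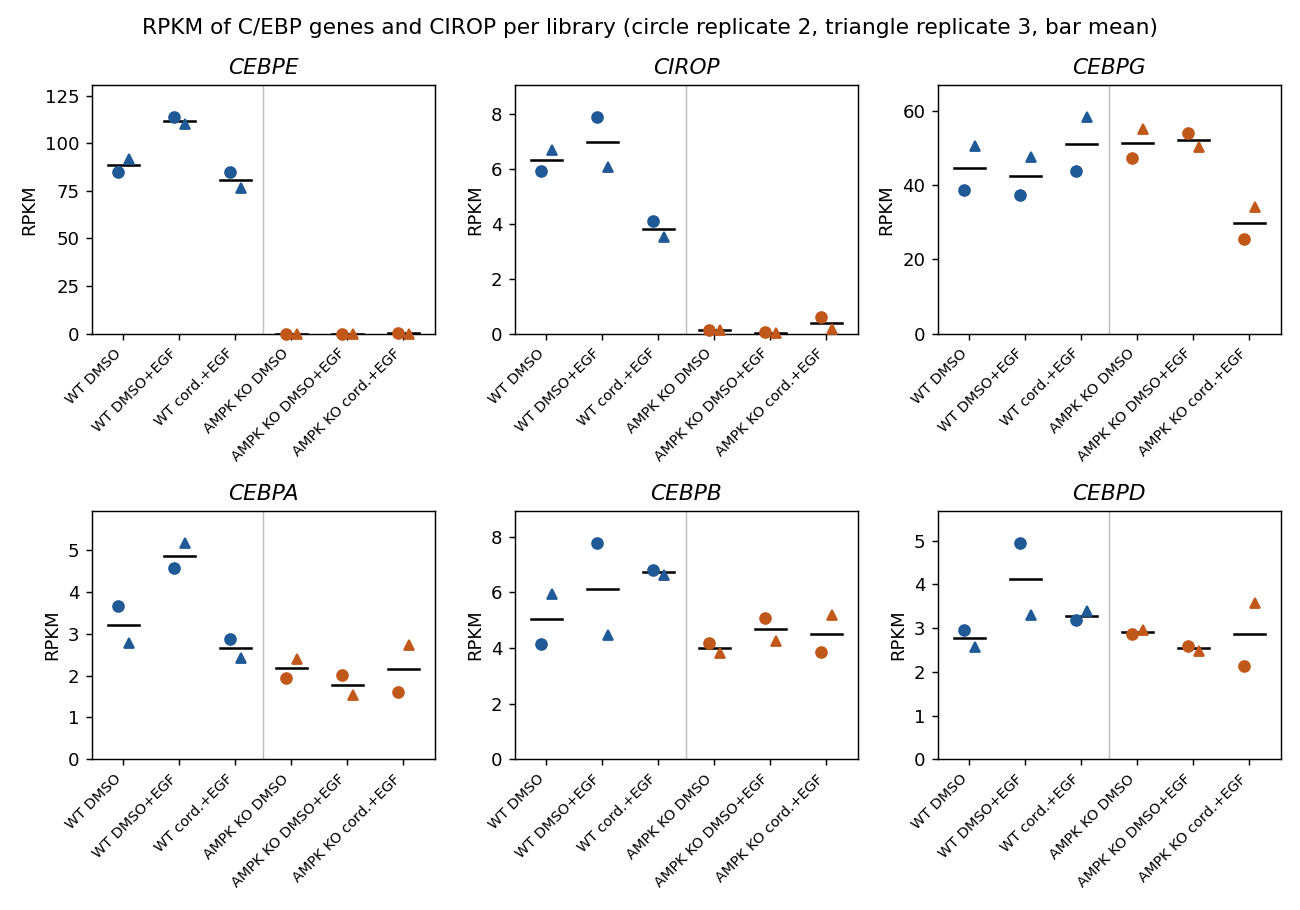
RPKM (linear axis from 0) of CEBPE, its neighbour CIROP and the other C/EBP genes in each library, with WT in blue and AMPK KO in orange, circles for replicate 2, triangles for replicate 3 and bars for group means. CEBPE runs from 76.2 to 113.6 RPKM in WT and does not exceed 0.0387 RPKM in AMPK KO, and CIROP runs from 3.51 to 7.88 and from 0.0224 to 0.592 RPKM, whereas CEBPG, CEBPA, CEBPB and CEBPD are present in both lines.

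The pattern of CEBPE was matched by few genes at this depth. Of 15480 genes with at least 1 RPKM in each of the 6 WT libraries, CEBPE was the only gene with at most 1 read in each of the 6 AMPK KO libraries. CEBPE was selected on its loss, so its place in this count follows from the selection. The gene nearest to it by this measure, RIBC2, had at most 2 reads. In 9 genes the lowest WT value was over 5-fold above the highest AMPK KO value, and in 13 genes over 2-fold. The 9 genes were counted as well when AMPK KO values were raised to the floor of 3 reads. Besides CEBPE they were RIBC2, TUSC1 and the histone gene H2BC10, which had at most 3 reads in any AMPK KO library, and 5 genes with more reads, for which the ratio was 31.8 (TENM1), 25.6 (MAP7D2), 10.1 (SPARC), 7.12 (ZNF717) and 5.94 (CIROP). Among 18784 genes with a mean of at least 1 RPKM, those most like CEBPE by Pearson r of log2(scaled RPKM + 0.5) over the 12 libraries were MAP7D2 (r = 0.997), TENM1 (r = 0.993), RIBC2 (r = 0.984), TUSC1 (r = 0.981) and CIROP (r = 0.981). The libraries formed 2 clusters, 1 per line, and r described little more than that split.

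With CEBPE, the summed level of the family differed between the lines, which follows from the selection of CEBPE on its loss. The 5 genes summed to a mean of 143.9 RPKM in WT DMSO, 169.4 RPKM in WT DMSO+EGF and 144.4 RPKM in WT cordycepin+EGF, against 60.4, 61.2 and 39.4 RPKM in AMPK KO cells. CEBPE made up 61.5%, 66.0% and 55.9% of the sum in the WT groups. Without it, the sums were 55.6, 57.6 and 63.8 RPKM in WT, against 60.4, 61.2 and 39.4 RPKM in AMPK KO cells. CEBPG then made up most of the remainder, and in AMPK KO cells it accounted for 84.9%, 85.4% and 75.9% of the sum. In every WT library CEBPE stood above CEBPG, which stood far above the rest, while the WT ranges of CEBPB, CEBPA and CEBPD overlapped.

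Within WT cells, where the selection of CEBPE did not use the differences between treatments, CEBPE was higher with EGF and lower with cordycepin, but neither change passed the test after adjustment. The mean was 88.3 RPKM ± 4.96 (SD, n = 2) in DMSO, 111.8 ± 2.53 (SD, n = 2) in DMSO+EGF and 80.6 ± 6.23 (SD, n = 2) in cordycepin+EGF. Both DMSO+EGF libraries lay above both libraries of each of the other WT groups, while DMSO and cordycepin+EGF overlapped. With EGF the difference was 0.31 (SE 0.118) on the log2(scaled RPKM + 0.5) scale used for all tests, with an adjusted p of 0.497 by limma with Benjamini-Hochberg adjustment over 22067 genes. For cordycepin it was -0.43 (SE 0.118), with an adjusted p of 0.262 by limma. By limma with voom on the recovered reads the cordycepin difference was -0.47 and passed (adjusted p = 0.0465), as did 3.89% of all genes by voom. The unadjusted p of CEBPE was 0.0272 for EGF and 0.00566 for cordycepin. The fit takes the spread of a gene from all 12 libraries. The AMPK KO libraries of CEBPE held almost no reads and hardly varied. Its SE and p-values therefore do not measure the spread of the WT libraries alone. This limit also holds for CEBPE in the counts of members given below. In AMPK KO cells no response of CEBPE could be measured at this depth.

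For EGF in WT cells, none of the 5 members passed by limma (1 at an unadjusted p under 0.05, and none by voom), where 0.0227% of all genes passed after adjustment (0.0424% by voom) and 9.72% had an unadjusted p under 0.05. Replicates did not overlap between DMSO and DMSO+EGF for CEBPA, CEBPD and CEBPE, which is 3 of 5 members, against 36.5% of all genes. CEBPA was at 3.66 and 2.77 RPKM in WT DMSO and at 4.56 and 5.17 RPKM in WT DMSO+EGF, a difference of 0.51 (SE 0.239, adjusted p = 0.518). CEBPD was at 2.96 and 2.58 RPKM before and 4.95 and 3.30 RPKM after EGF, a difference of 0.46 (SE 0.238, adjusted p = 0.542). CEBPB was at 4.15 and 5.94 RPKM in WT DMSO and 7.76 and 4.46 RPKM in WT DMSO+EGF, and its groups overlapped. CEBPG was at 38.6 and 50.5 RPKM and at 37.4 and 47.6 RPKM, again with overlap. The differences were 0.20 (SE 0.259) for CEBPB and -0.09 (SE 0.200) for CEBPG.

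For EGF in AMPK KO cells, none of the 4 members tested passed by limma (none at an unadjusted p under 0.05, and none by voom), where 0.0136% of all genes passed (0.0188% by voom) and 2.42% had such an unadjusted p. CEBPA was at 1.95 and 2.40 RPKM in DMSO and 2.00 and 1.53 RPKM in DMSO+EGF, and these overlapped. CEBPB was at 4.17 and 3.83 RPKM and then at 5.07 and 4.25 RPKM, with no overlap, and CEBPD was at 2.85 and 2.96 RPKM and then at 2.60 and 2.49 RPKM, with no overlap in the opposite direction. These were 2 of 4 members, against 38.5% of all genes. CEBPG was at 47.5 and 55.1 RPKM and at 54.1 and 50.3 RPKM. The 4 differences ran from -0.23 for CEBPA to 0.20 for CEBPB, each with an adjusted p of 1. The EGF effect was not shown to differ between the lines for any of the 4 members, with the largest interaction -0.75 (SE 0.338) for CEBPA at an adjusted p of 0.582. None of the members had an interaction with an unadjusted p under 0.05, against 8.69% of all genes, and 0.0% of all genes passed after adjustment.

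**Figure D2:**
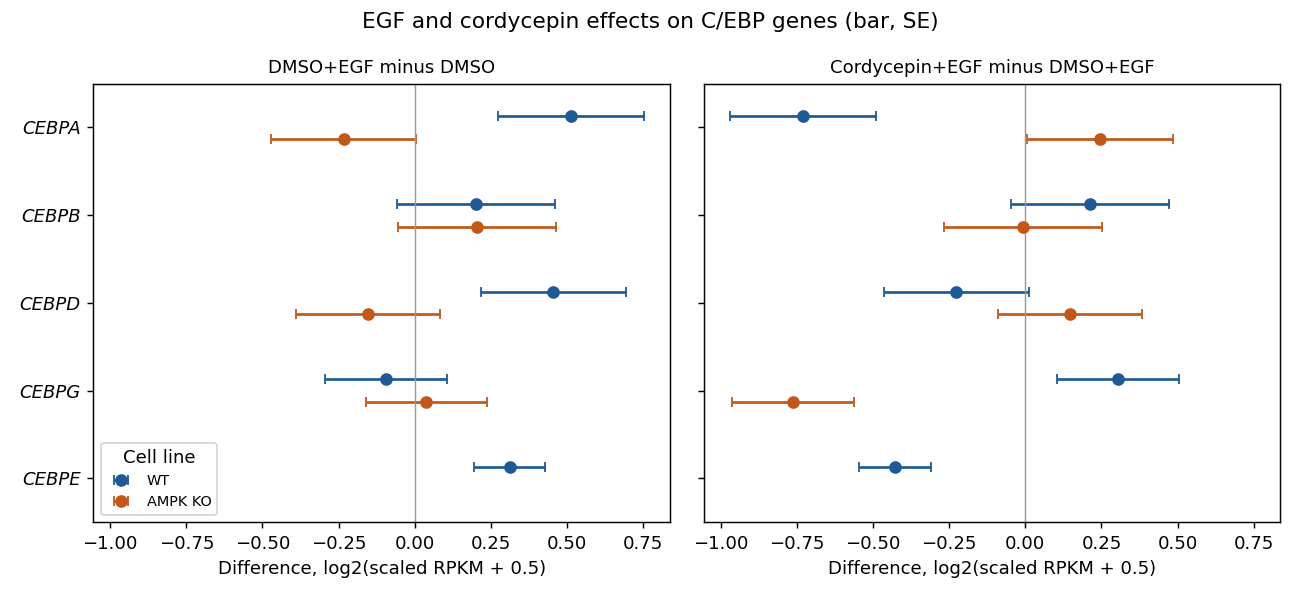
Differences on the log2(scaled RPKM + 0.5) scale (horizontal axis) with their SE for EGF (left) and for cordycepin on EGF-treated cells (right), in WT (blue) and AMPK KO (orange). CEBPE is drawn for WT only, with an SE that also draws on its AMPK KO libraries, which hardly varied. With cordycepin CEBPG lies at -0.76 in AMPK KO and at 0.30 in WT, and CEBPA at 0.25 and -0.73.

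With cordycepin no member passed by limma after adjustment in either line, and CEBPG in AMPK KO cells came nearest to it. CEBPG was at 43.9 and 58.3 RPKM in WT cordycepin+EGF, which overlapped WT DMSO+EGF. In AMPK KO cordycepin+EGF it was at 25.5 and 34.3 RPKM, its lowest values in the series, below both AMPK KO DMSO+EGF libraries and every other library. The difference was -0.76 (SE 0.200, adjusted p = 0.0918) in AMPK KO cells and 0.30 (SE 0.200, adjusted p = 0.46) in WT cells. The difference between these effects was -1.07 (SE 0.283) with an adjusted p of 0.124. The AMPK KO effect of CEBPG passed by voom (adjusted p = 0.0283) and with array weights (adjusted p = 0.0464), as did the difference between the lines (adjusted p = 0.0223 and 0.043). Of all genes, 5.95% by voom and 5.41% with array weights passed for cordycepin in AMPK KO cells, and 9.3% and 6.6% for the difference between the lines.

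CEBPA in WT cordycepin+EGF was at 2.88 and 2.42 RPKM, below both WT DMSO+EGF libraries. The difference was -0.73 (SE 0.239, adjusted p = 0.267). In AMPK KO cordycepin+EGF it was at 1.60 and 2.72 RPKM, which overlapped DMSO+EGF, and the difference was 0.25 (SE 0.239, adjusted p = 0.578), which ran from -0.0583 to 0.55 on leaving out each library. The difference between the lines was 0.98 (SE 0.338, adjusted p = 0.162). The groups of CEBPB and CEBPD overlapped in both lines. CEBPB was at 6.81 and 6.61 RPKM in WT and 3.86 and 5.17 RPKM in AMPK KO cordycepin+EGF, and CEBPD at 3.19 and 3.39 RPKM and at 2.13 and 3.59 RPKM. Their differences with cordycepin ran from -0.23 to 0.21 over both lines.

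Counted over the members, none of 5 passed for cordycepin in WT cells by limma (2 at an unadjusted p under 0.05, and 1 by voom), against 0.00453% of all genes after adjustment (3.89% by voom) and 16.0% before it. Replicates did not overlap for 2 of 5 members, against 53.5% of all genes. For the same comparison in the knockout line none of 4 was called by limma (1 at an unadjusted p under 0.05, and 1 by voom), against 0.471% of all genes after adjustment (5.95% by voom) and 21.8% before it. Replicates did not overlap for 1 of 4 members, against 59.2%. For the difference between the lines, none of 4 was called by limma (2 at an unadjusted p under 0.05, and 1 by voom), against 0.0% of all genes after adjustment (9.3% by voom) and 21.4% before it.

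Between the lines, CEBPA in EGF-treated cells was the only call among the other 4 members, each tested in 3 treatments. It was at 4.87 RPKM ± 0.425 (SD, n = 2) in WT DMSO+EGF and 1.77 ± 0.333 (SD, n = 2) in AMPK KO DMSO+EGF, with no overlap. The log2 difference was -1.23 (SE 0.239), with an adjusted p of 0.0474 by limma. The call was lost with median-ratio scaling (adjusted p = 0.0501), without the mean-variance trend (0.0506), with a replicate block (0.0569), with a replicate block within each line (0.0624) and on leaving out any of the 4 libraries compared (0.193 to 0.297). In DMSO the difference of CEBPA was -0.49 (adjusted p = 0.274), and in cordycepin+EGF it was -0.26 (adjusted p = 0.641). CEBPA-DT, a divergent transcript that begins near CEBPA, was at a mean of 1.30 RPKM in WT DMSO+EGF and 0.395 RPKM in AMPK KO DMSO+EGF, a difference of -1.02 (SE 0.307, adjusted p = 0.105).

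CEBPD in EGF-treated cells differed by -0.57 (SE 0.238, adjusted p = 0.20) and CEBPG by 0.32 (SE 0.200, adjusted p = 0.383), both without overlap. CEBPG in cordycepin+EGF differed by -0.74 (SE 0.200, adjusted p = 0.228) and CEBPB by -0.52 (SE 0.259, adjusted p = 0.404), again without overlap. In DMSO the differences of CEBPB, CEBPD and CEBPG were -0.30, 0.04 and 0.19. For the 3 treatments in the order DMSO, DMSO+EGF and cordycepin+EGF, 0, 1 and 0 of 4 members passed by limma and as many by voom, against 0.44%, 1.74% and 0.118% of all genes by limma and 7.84%, 10.9% and 1.4% by voom. An unadjusted p under 0.05 was found for 0, 2 and 1 members, against 21.3%, 22.5% and 13.7%. Replicates did not overlap for 1, 3 and 2 members, against 48.5%, 62.8% and 45.6%. The comparisons of a line with and without EGF or cordycepin share their DMSO+EGF libraries with these.

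The genes around CEBPE were compared to see how far along the chromosome the difference reached. Of 39 genes annotated within 250 kb, 26 were listed and 23 passed the filter besides CEBPE. CIROP met the filter of 0.5 RPKM through its WT libraries alone, so it had to differ. Its difference between the lines is therefore given as a description with no test. CIROP (ENSG00000283654, chromosome 14, 23099062 to 23104989, minus strand) begins 12046 bases beyond the 3′ end of CEBPE. It was at 5.93 and 6.69 RPKM in WT DMSO, 7.88 and 6.06 RPKM in WT DMSO+EGF, and 4.11 and 3.51 RPKM in WT cordycepin+EGF. In AMPK KO cells it was at 0.141 and 0.113 RPKM in DMSO, 0.0448 and 0.0224 RPKM in DMSO+EGF, and 0.592 and 0.180 RPKM in cordycepin+EGF. All WT libraries thus lay above all AMPK KO libraries, but unlike CEBPE a few reads of CIROP remained in each of them.

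The reads of CIROP in WT and AMPK KO cells were 413 and 13 in DMSO, a ratio of 48.1 (95% interval 27.8 to 91.1). They were 967 and 3 in DMSO+EGF, a ratio of 213 (95% interval 72.7 to 1035). In cordycepin+EGF they were 565 and 39, a ratio of 10.8 (95% interval 7.83 to 15.4). Of these 39 reads 28 came from AMPK KO replicate 2, and the ratio was 21.7 without that library and 6.59 without AMPK KO replicate 3. As a description, the log2 difference of CIROP between the lines was -3.45 in DMSO, -3.77 in DMSO+EGF and -2.32 in cordycepin+EGF. The difference in cordycepin+EGF ran from -2.67 to -1.97 on leaving out each library.

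**Figure D3:**
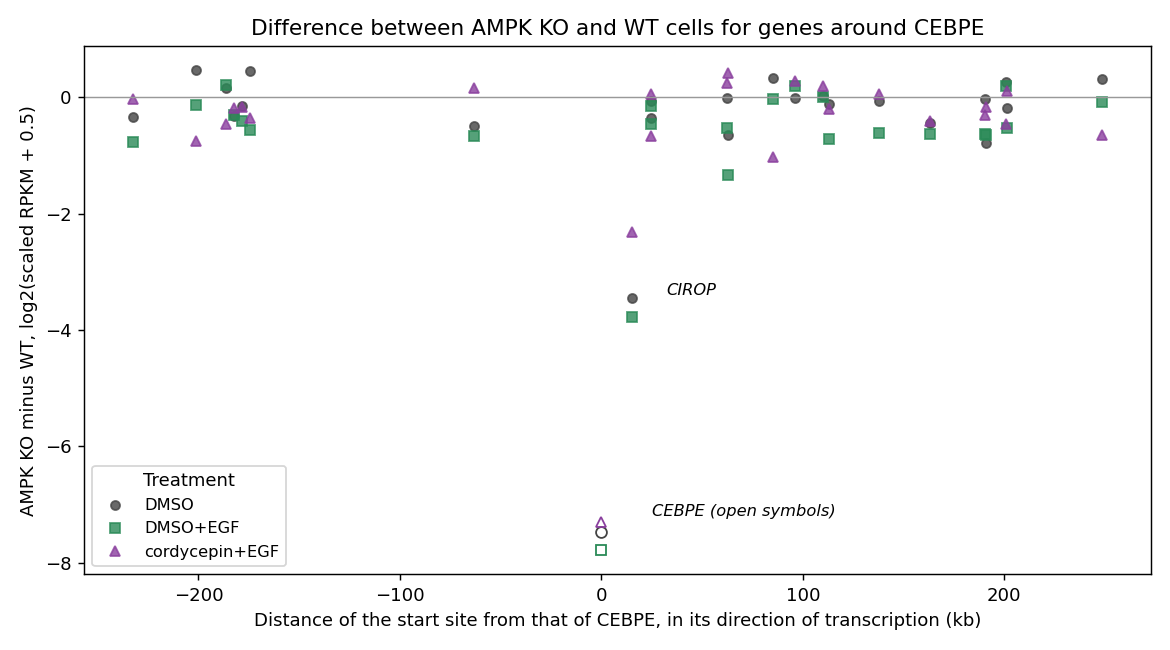
Difference between AMPK KO and WT cells on the log2(scaled RPKM + 0.5) scale (vertical axis) for the 23 genes within 250 kb of CEBPE that passed the filter. The horizontal axis gives the distance (kb) of each start site from that of CEBPE, in its direction of transcription. The start of CEBPE is taken here as the upstream end of the annotated gene, 23120256. Symbols stand for the 3 treatments. CEBPE (open symbols) and CIROP, both given as description only, lie far below 0, while the other 22 genes lie between -1.34 and 0.47.

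For the other 22 neighbours the median difference was -0.07 in DMSO (range -0.79 to 0.47), -0.50 in DMSO+EGF (range -1.34 to 0.20) and -0.18 in cordycepin+EGF (range -1.03 to 0.42). None of the 22 passed the test in these treatments, against 0.44%, 1.74% and 0.118% of all genes in the same order. At such shares the lack of calls says little about how far the difference reached. The medians over all genes lay between -0.005 and 0.014. The lowest value was that of CDH24, a cadherin gene, which was at 5.07 and 5.86 RPKM in WT DMSO+EGF and 2.01 and 1.64 RPKM in AMPK KO DMSO+EGF (adjusted p = 0.0509). SLC7A8, an amino acid transporter gene and the nearest listed gene upstream at 5038 bases, was at 2.13 to 3.68 RPKM in WT and 1.69 to 3.25 RPKM in AMPK KO libraries. Its difference was -0.49 in DMSO and -0.67 in DMSO+EGF, both without overlap, and 0.15 in cordycepin+EGF, with overlap. C14orf119 overlaps the end of CIROP by 1395 bases on the opposite strand. The libraries were stranded, but whether reads were counted by strand was not given in the sources used here. C14orf119 itself was at 7.62 to 11.0 RPKM in WT and 5.05 to 7.98 RPKM in AMPK KO libraries, so it was still detected where CIROP was near 0. It was lower in AMPK KO cells without overlap in DMSO (-0.36), DMSO+EGF (-0.47) and cordycepin+EGF (-0.66). Of all genes, 48.5%, 62.8% and 45.6% did not overlap in the same order. ACIN1, the next gene, was at 27.0 to 32.6 and 27.3 to 30.5 RPKM.

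In WT cells CIROP did not pass the test for either treatment. Its cordycepin difference there was -0.74 (adjusted p = 0.267 by limma), which passed under 1 of the 12 alternatives. In AMPK KO cells CIROP had 3 reads in DMSO+EGF and 39 in cordycepin+EGF. These counts were too low to measure its response there, or how the response differed between the lines.

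No other listed transcript within 10 kb of a member passed the test in any comparison. CEBPB-AS1 overlaps CEBPB by 669 bases on the opposite strand and was at 0.459 to 1.30 RPKM, so its reads and those of CEBPB might be shared if strand was not used. With cordycepin in WT cells the difference of CEBPB-AS1 was 0.65 (adjusted p = 0.279), without overlap, as for 53.5% of all genes. CEBPA is overlapped by 2 antisense noncoding genes that were not listed. SPIDR, 606 bases from CEBPD, was at 8.42 to 11.5 RPKM, and PEPD, 4263 bases from CEBPG, at 7.18 to 11.3 RPKM. PEPD libraries of the lines did not overlap in cordycepin+EGF, where the difference was -0.30 (adjusted p = 0.372), nor in DMSO (0.29, adjusted p = 0.262) or DMSO+EGF (-0.07). In the same order, 45.6%, 48.5% and 62.8% of all genes did not overlap either.

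Among the other members, the likest genes over 18784 genes and the 12 libraries were DHRS4 (r = 0.959) and TTLL12 (r = 0.944) for CEBPA, IFI6 (r = 0.89) and ENSG00000289926 (r = 0.863) for CEBPB, and TRIM8 (r = 0.915) and CDR2L (r = 0.914) for CEBPD. For CEBPG they were HSP90AA1, a cytosolic chaperone (r = 0.977), and RMND5A (r = 0.968). HSP90AA1 ran from 295.1 to 406.3 RPKM in WT and from 206.8 to 407.0 RPKM in AMPK KO libraries. These correlations share libraries and their scaling, and are descriptions.

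Genes of the pathway were then read from lists. Of 14 bZIP partners, 13 were listed and 10 could be tested, and none passed in any comparison by limma. ATF4, a stress-induced partner of C/EBPγ, had the highest mean level, 175.5 RPKM. It ran from 134.9 to 241.1 RPKM in WT and from 113.3 to 255.9 RPKM in AMPK KO libraries, so the lines overlapped. ATF2 came next at 14.2 RPKM. An unadjusted p under 0.05 was found for 5 of the 10 partners with cordycepin in WT and for 5 in AMPK KO cells, against 16.0% and 21.8% of all genes, with medians of -0.17 and -0.12 against 0.03 and 0.06 over all genes. DBP, a circadian bZIP factor named here after its values were seen, was higher with cordycepin by 1.06 in WT and 1.12 in AMPK KO cells without passing the adjusted threshold. Partners did not all move alike in the lines. TEF (0.47 in WT and -0.57 in AMPK KO cells) and BATF3 (-0.78 and 0.805), also named afterwards, went in opposite directions. For the difference between the lines, 6 of the 10 partners had an unadjusted p under 0.05 by limma, against 21.4% of all genes.

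All 11 genes reported as acting on C/EBP proteins, such as kinases, ubiquitin ligase parts and translation factors, could be tested, and none passed in any comparison by limma. CELF1, an RNA-binding protein, was highest at a mean of 31.1 RPKM, followed by CDK2, a cell cycle kinase, at 26.0 RPKM. With cordycepin in AMPK KO cells all 11 were lower, 7 of them at an unadjusted p under 0.05, against 44.9% of all genes lower and 21.8% at such a p in either direction, with a median of -0.34 against 0.06 over all genes. A uniform fall was not particular to this list. The 5 HEK293 markers tested were also all lower with cordycepin, with medians of -0.25 in AMPK KO and -0.39 in WT cells. In WT cells 4 of 11 were lower with cordycepin, 1 of them at an unadjusted p under 0.05, with a median of 0.03, against 46.5% of all genes lower and 16.0% at such a p. That 1 gene was TRIB1, a pseudokinase that directs C/EBPα to degradation, at -1.44 (unadjusted p = 0.000161), named after its values were seen. Its difference was -0.64 in AMPK KO cells.

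**Figure D4:**
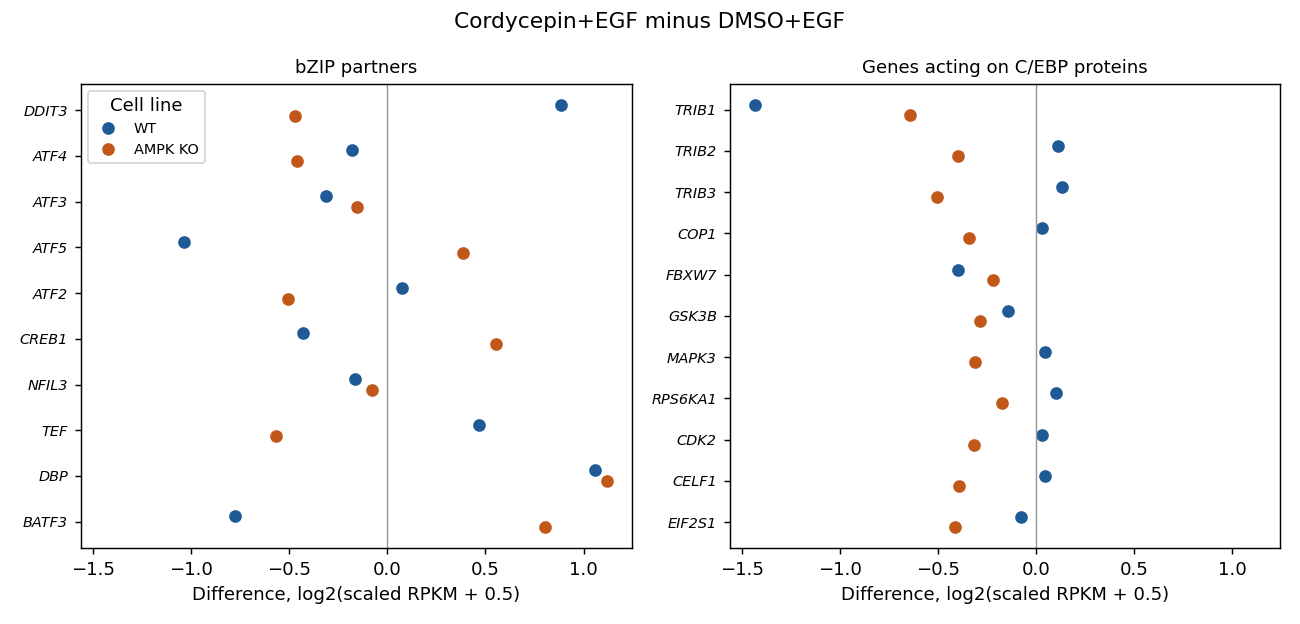
Difference between cordycepin+EGF and DMSO+EGF on the log2(scaled RPKM + 0.5) scale (horizontal axis) for 10 bZIP partners (left) and 11 genes acting on C/EBP proteins (right), in WT (blue) and AMPK KO (orange). The 11 genes on the right all lie below 0 in AMPK KO, where their median is -0.34, and 4 of them lie below 0 in WT. No gene passed the adjusted threshold.

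Genes of other tissues that were chosen as linked to C/EBP proteins were mostly not listed. Of 24 granule and neutrophil genes of myeloid cells, not all of which need be controlled by C/EBPε, EPX was the only gene listed. It was at no more than 0.904 RPKM, and none could be tested. Of 12 fat and liver genes, 5 were listed and 2 tested, PPARG at a mean of 2.39 RPKM and SLC2A4 at 0.723 RPKM. PPARG, the master regulator of fat cells, was at 2.05 to 2.64 RPKM in WT and 2.13 to 2.80 RPKM in AMPK KO libraries. Of 13 inflammatory and acute phase genes, 7 were listed and 1 tested, PTX3 at 0.616 RPKM, with PTGS2 next at 0.381 RPKM. None of the tested genes of these lists passed in any comparison by limma.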

How the data were processed

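RNA of 12 HEK293 libraries was sequenced by the authors as stranded, ribosomal RNA-depleted paired reads of 150 bases. Reads were mapped by the authors to GRCh38.p13 and counted with Rsubread, and the values they deposited are RPKM, the unit used here. Not used were 2 rows with no gene name. IDs were matched to GENCODE release 44 for 26029 of 26058 genes. Dividing by the value of 1 read gave whole reads in all libraries for 25082 genes (96.25%, within 0.05 of a read). Library totals and voom rest on those. The search for genes with few reads in AMPK KO libraries used rounded reads of all matched genes.

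Values were scaled by the upper quartile and tested as log2(scaled RPKM + 0.5), a scale that understates how much low genes change. A mean of at least 0.5 RPKM was required, which left 22067 genes for limma 3.58.1 in R 4.3.3 (all 12 libraries, group means, trend, two-sided, Benjamini-Hochberg adjustment within each comparison, residual degrees of freedom 6, moderated 8.96). Every SE is a moderated one. The fit was tested on simulated data. Named genes were the members, PRKAA1 and PRKAA2, genes within 10 kb of a member, the listed genes within 250 kb of CEBPE, the likest genes and, per list, called genes and those with the 2 highest levels. Members, lists and rules were chosen with earlier results of these data known. Alternatives were pseudocounts of 0.1 and 1, other filters and scalings, other fits, replicate blocks, voom on recovered reads, array weights and leaving out each library. Blood markers were described and their part in any result was not tested. The list of genes acting on C/EBP proteins is given without 1 gene, which is not reported here.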

Additional observations from a re-analysis of the deposited data

How the results depend on the processing

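Depth limits the low members most, since CEBPD had as few as 13 reads in WT DMSO replicate 3. Calls were added by voom and by array weights. By voom CEBPE with cordycepin in WT cells was -0.47, CEBPG with cordycepin in AMPK KO cells -0.81 and its difference between the lines -1.07, each making 1 member called. With array weights the last pair, at -0.76 and -1.07, was called, again 1 member each. The CEBPA difference between the lines in DMSO+EGF was not called with median-ratio scaling (-1.23), without the trend (-1.23), with a replicate block (-1.23, adjusted p = 0.0569 by limma) or with a replicate block within each line (-1.40, adjusted p = 0.0624), leaving 0 members called. The cause was not tested. The sign turned for CEBPD between the lines in DMSO with the block within each line (-0.17), and for the interaction of EGF and line for CEBPB with a pseudocount of 1 (-0.0019), with RPKM as deposited (-0.0311) and by voom (-0.18). The lower bound for CEBPE in DMSO+EGF was 931.8-fold from recovered reads scaled by library total.

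On leaving out each library, differences between AMPK KO and WT ran from -1.38 to -1.08 for CEBPA in DMSO+EGF with 0 members called, from -0.56 to 0.0463 for CEBPA in cordycepin+EGF, from -0.68 to 0.0777 for CEBPB in DMSO+EGF, from -0.0445 to 0.13 for CEBPD in DMSO and from -0.50 to 0.12 for CEBPD in cordycepin+EGF. EGF differences ran from -0.18 to 0.58 for CEBPB in WT, from -0.28 to 0.0925 for CEBPG in WT, from -0.0536 to 0.13 for CEBPG in AMPK KO, and from -0.0883 to 0.28 for CIROP in WT. Cordycepin differences ran from -0.0583 to 0.55 for CEBPA, from -0.19 to 0.18 for CEBPB and from -0.17 to 0.46 for CEBPD in AMPK KO, and from -0.17 to 0.59 for CEBPB and from -0.50 to 0.0418 for CEBPD in WT. Interactions ran from -0.37 to 0.38 for CEBPB and from -0.0541 to 0.32 for CEBPG with EGF, and from -0.60 to 0.16 for CEBPB with cordycepin.

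Replicate differences correlated across genes with r of 0.136 to 0.314 between WT groups, -0.122 to 0.031 between AMPK KO groups and -0.081 to 0.322 between groups of different lines, so not every pair was over 0.1. Leaving aside CIROP, and apart from CEBPA, CEBPD and the PRKAA1 values given above, the replicate block changed no call or direction of these genes. Counts over all genes moved with cordycepin in WT (1 called, 0 to 827), cordycepin in AMPK KO (104, 0 to 1264), AMPK KO against WT in DMSO (97, 1 to 1665), in DMSO+EGF (383, 130 to 5041) and in cordycepin+EGF (26, 2 to 298), and for the interaction of cordycepin and line (0, up to 1975). On leaving out each library these counts ran from 0 to 7, 0 to 1360, 5 to 3065, 6 to 2369, 4 to 76 and 0 to 2006, in the same order, with the highest always without a WT DMSO library. Without WT DMSO replicate 2 the count for EGF in WT was 702 (5 with all libraries) and that for the interaction of EGF and line 13 (0 with all libraries).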

Other observations

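CEBPZ shares the family's name but not its bZIP domain, and was at 22.5 to 33.8 RPKM in WT libraries and 18.3 to 33.1 RPKM in AMPK KO libraries. Like CEBPG it had its lowest mean, 20.2 RPKM, in AMPK KO cordycepin+EGF, where its difference with cordycepin was -0.58 on the log2 scale and did not pass the test (adjusted p = 0.146 by limma). CEBPZOS, which lies opposite CEBPZ, was at 11.6 to 14.9 RPKM in WT and 12.3 to 14.6 RPKM in AMPK KO libraries.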
